A study of Homo sapiens with 12 samples.

Results

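The K1 experiment compared 3 libraries from cells given siRNA against TRIM35 with 3 libraries from cells given a negative control siRNA, 24 h after transfection, and these 6 libraries were all the K1 libraries among the 12 of the series. K1 is an established line of human papillary thyroid cancer, and the labels give the genotype of its control cells as WT and of its siRNA cells as TRIM35 knockdown. The other 6 libraries came from TPC-1, another line of the same cancer, with the same pair of treatments. They are used here only to compare the siRNA effect between lines and in an alternative fit of all 12 libraries. Libraries were assigned by line and treatment in their library names. TPC-1 control library 3 has a title that names a different line, against its library name, and was kept in TPC-1. No other allele, transgene or agent is named for either K1 group, so both groups share the line, the transfection and the time, and the results describe 1 line. The labels do not say whether the replicates were separate cultures, so the p-values describe variation among the libraries as deposited, part or all of which may be technical.

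TRIM35 belongs to the tripartite motif family, whose members carry a RING domain with E3 ubiquitin ligase activity, a B-box and a coiled coil. It is known as a binding partner of the M2 form of pyruvate kinase, the enzyme that makes pyruvate in the last step of glycolysis, and as a ligase that acts on IRF7 and TRAF3, a transcription factor and an adaptor of the antiviral interferon response. A ligase acts on proteins, so RNA-seq reads its effects only where transcript levels follow. The title of the series names proliferation, metastasis and glycolysis, and the gene lists below were drawn up around these processes.

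The libraries held 16705044 to 22928861 counts each, with 25015 to 28045 genes detected by 1 count or more. After a filter on low counts, 16627 genes were tested in K1. The labelled cell type was checked against markers. Of the transcription factors of the thyroid lineage, PAX8 (95.5 to 129 FPKM) and FOXE1 (11.8 to 15.1 FPKM) were expressed in all 6 libraries. NKX2-1, another of these factors, was at 0 FPKM in all 6. TSHR and SLC5A5, which serve hormone synthesis and its control, were at or below 0.02 FPKM. CDH1, the epithelial cadherin, was at or below 0.02 FPKM, and KRT8 and KRT18, keratins of simple epithelia, were at 23.0 to 31.6 and 24.7 to 41.9 FPKM. The summed level of 17 leukocyte markers was 6.41 to 8.37 FPKM and that of 10 endothelial markers 3.11 to 3.67 FPKM; CD14 made up 3.71 to 5.31 FPKM of the leukocyte sum, and CD3D, CD3E and MS4A1 were at 0. The 11 fibroblast markers summed to 70.4 to 78.8 FPKM, most of it PDPN at 58.7 to 65.8 FPKM, with THY1 at 5.73 to 8.30 FPKM.

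TRIM35 mRNA was present at a low level in K1 and was not detectably lower in the siRNA libraries. The control libraries held 1.51, 1.85 and 1.47 FPKM (counts scaled by the exonic length of the gene and by the library total), and the siRNA libraries 1.20, 1.49 and 1.53 FPKM. The groups overlapped: siRNA library 1 was the lowest of the 6 and control library 2 the highest, while the other 4 lay close together. The gene (ENSG00000104228; hg38, chromosome 8, 27284886 to 27311272, minus strand) was covered by 85 to 176 counts per library. The siRNA level was 88.1% of control with a 95% interval of 65.9% to 118% (log2 fold change -0.18, SE 0.18, edgeR adjusted p = 1.00). An exact two-sided permutation test on log2 CPM gave p = 0.5, where 3 against 3 libraries can reach 0.1 at the smallest. The interval of this fit does not include a fall to under 65.9% of control. Other fits gave lower values, a log2 fold change of -0.31 (SE 0.20) without control library 1 and siRNA library 3 and -0.35 with voom library weights, neither called (edgeR adjusted p = 0.902 and limma adjusted p = 0.161). It was -0.08 without control library 2 and -0.06 without siRNA library 1. Protein was not measured, and whether fewer transfected cells or less TRIM35 per cell would lower a value cannot be told apart in bulk RNA.

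Across the transcriptome, 0 of 16627 genes passed an adjusted p under 0.05 in K1 (0% called). At an unadjusted p under 0.05 by edgeR, 65 genes were higher (0.391%) and 49 lower (0.295%) in the siRNA libraries, against 831 genes that a uniform spread of p-values would put there. The smallest adjusted p was 1.00. DESeq2 also called 0 genes, with 75 at an unadjusted p under 0.05. Without siRNA library 3 edgeR put 987 genes there, without control library 3 186 and without control library 2 64, with 0 called in each. Without regard to size, the 3 siRNA libraries lay above the 3 controls on scaled log2 CPM for 423 genes (2.54%) and below them for 393 genes (2.36%), so 51.8% of the genes without overlap were higher. On deposited FPKM, which is scaled by the total count alone, the counts were 188 higher and 340 lower, or 35.6% higher.

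The 6 K1 libraries differed from each other mainly along a single axis that did not follow the treatment. A principal component analysis of the 6269 genes with a mean of at least 5 FPKM put 82.4% of the variance on its first component and 6.49% on the second. Control libraries scored -16.3, -1.28 and 12.4 on the first component, and siRNA libraries 16.4, 8.41 and -19.7. Control library 1 and siRNA library 3 thus lay at one end, control library 3 and siRNA libraries 1 and 2 at the other, and control library 2 between them. The median absolute log2 difference over these genes was 0.06 between control library 3 and siRNA library 2, from opposite groups, and 0.24 between control libraries 1 and 3. No pair of libraries agreed within sampling noise, since the chi-square per degree of freedom was 2.82 or more in every pair.

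**Figure D1:**
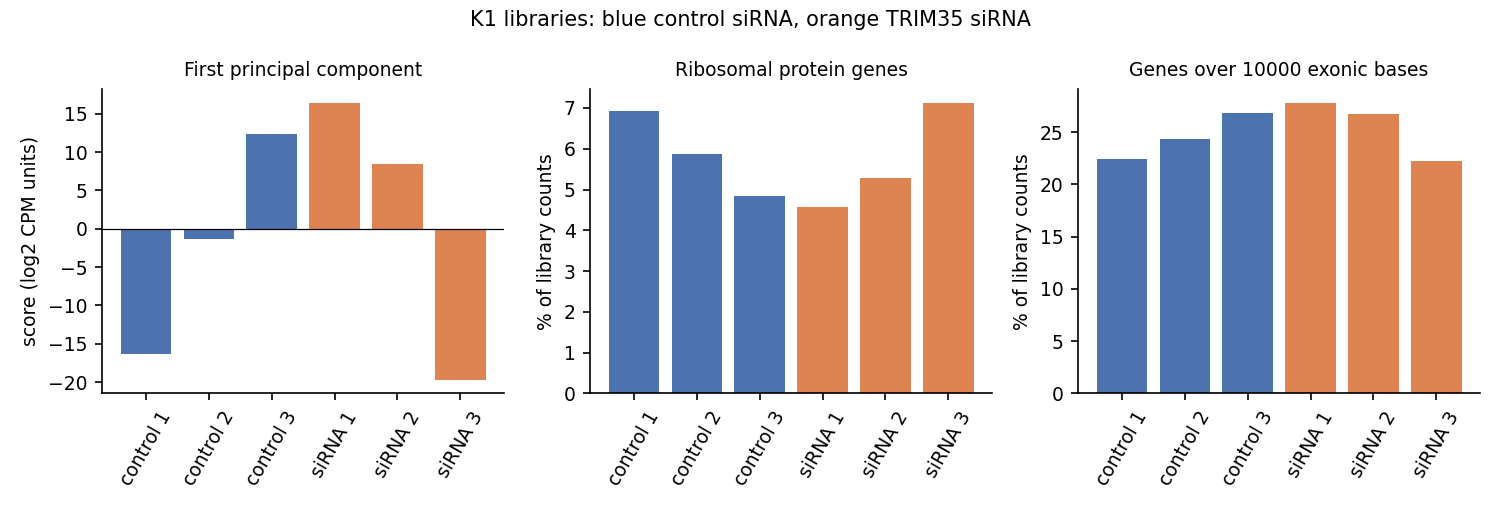
Score on the first principal component, share of counts (percent) in ribosomal protein genes and share of counts in genes of over 10000 exonic bases, as 1 bar for each K1 library (blue, control siRNA; orange, TRIM35 siRNA). Control library 1 and siRNA library 3 had the lowest scores, the highest ribosomal protein shares (6.93% and 7.11%) and the lowest long-gene shares (22.5% and 22.2%).

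The genes that carried this axis were sorted by size and kind. Ribosomal protein genes, which encode the protein part of the ribosome, took 6.93%, 5.87% and 4.85% of counts in the control libraries and 4.57%, 5.28% and 7.11% in the siRNA libraries. All 30 listed ribosomal protein genes and 24 of 25 genes of oxidative phosphorylation were on the negative side of the axis, beside 4115 of 6269 genes in all. Of genes with 1000 to 2000 exonic bases, 94.6% had a negative loading, and of genes with 10000 bases or more, 29%. The order by size did not hold for the shortest class, since of the 86 genes under 300 bases 32.6% had a negative loading. Genes over 10000 bases took 22.5%, 24.3% and 26.8% of counts in control and 27.7%, 26.7% and 22.2% in siRNA libraries. NEAT1, a long nuclear RNA that builds paraspeckles, took 0.0347%, 0.0581% and 0.0690% in control and 0.0709%, 0.0621% and 0.0298% in siRNA libraries. So long genes and NEAT1 were high where ribosomal protein genes were low, in both groups. Loadings correlated with exonic size (Spearman rho 0.56) and with mean FPKM (rho -0.28) across the 6269 genes, which share the 6 libraries and are not independent. RNA quality was not measured, and its part in this axis was not tested.

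Since the axis ran within both groups, the comparison was also fitted with the first component as a covariate. The biological coefficient of variation estimated by edgeR was 0.161 with group means alone and 0.0490 with the covariate. The component was computed from the same 6 libraries and is treated as known in that fit. The p-values of the fit are therefore too small and its intervals too narrow. In this fit 2 of 16627 genes were called (0.012%), SLIT1 among them, and at an unadjusted p under 0.05 there were 486 higher (2.92%) and 551 lower genes (3.31%). With the mean level of the ribosomal protein list in place of the component, the same 2 genes were called. That mean correlated with the component at -0.99, so it is nearly the same covariate and not a second check. The count with the component moved with single libraries, to 20 without control library 3, 6 without siRNA library 1, 5 without siRNA library 2 and 1 without siRNA library 3.

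SLIT1, which encodes a secreted axon guidance ligand of ROBO receptors, was near the detection limit in K1. It had 14, 16 and 15 counts in the control libraries and 0, 2 and 0 counts in the siRNA libraries, at most 0.10 FPKM. Every control library was above every siRNA library. The siRNA level was 0.0491 of control by counts, with an exact interval of 0.00577 to 0.188 that covers counting error only. Its adjusted p by edgeR was 1.00 with group means and 0.00877 with the component as covariate, 0.0547 without control library 1, 0.0726 without siRNA library 1 and 0.799 without siRNA library 3, each of these with the covariate. By DESeq2 with the covariate it was 1.00.

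CASP14, a caspase of keratinocyte differentiation, showed the opposite pattern below the filter. It had 0 counts in each control library and 7, 14 and 17 counts in the siRNA libraries. Against a floor of 3 counts over the control group this is 14-fold higher. The exact interval of siRNA over control starts at 10.8-fold and covers counting error only. When no filter on low counts was applied, CASP14 and SLIT1 were the 2 genes called with group means. Both were named after their values were seen.

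**Figure D2:**
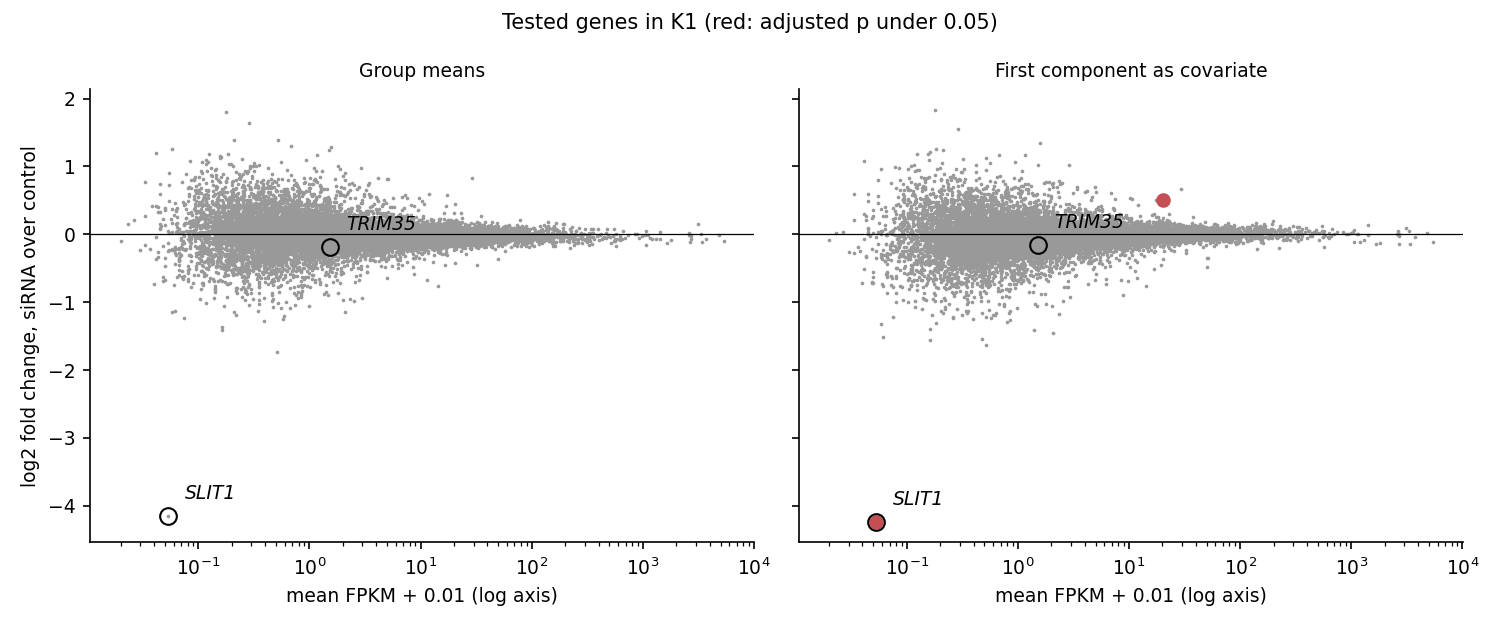
Log2 fold change (siRNA over control) against mean FPKM on a log axis for the 16627 tested genes, from group means (left) and with the first component as covariate (right). Red points had an adjusted p under 0.05: none on the left and 2 on the right, with SLIT1 at -4.24 named, and TRIM35 circled for reference.

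The intervals show what size of change these libraries bound. Of the 6269 genes with at least 5 FPKM, 98.4% had a 95% interval inside a 2-fold change either way and 87.6% inside 1.5-fold. With the component as covariate these shares were 99.5% and 98.2%, from intervals that are too narrow because the component is treated as known. Of the 4617 tested genes under 1 FPKM, 46.3% had an interval inside 2-fold, so most of those were not bounded. TRIM35 itself, at 1.20 to 1.85 FPKM, is in the class of 1 to 5 FPKM, where the share was 87.9%.

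The genes with the smallest p-values among those of at least 5 FPKM whose groups did not overlap had small differences. The 10 higher ones had log2 fold changes of 0.20 to 0.51, and the 10 lower ones of -0.26 to -0.16. None was called, and in TPC-1 4 of the 10 higher and 6 of the 10 lower genes had the same sign. On deposited FPKM, 6 and 9 of them were also without overlap. Lack of overlap on log2 CPM was a condition for naming these 10 genes per direction. A gap between their groups, where described below, is therefore not a separate result.

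KAT5, the acetyltransferase TIP60 of the NuA4 complex that acts on histones after DNA damage, measured 8.37, 8.25 and 7.72 FPKM in control against 6.97, 6.67 and 6.83 FPKM in siRNA libraries. All 3 siRNA values were below the lowest control. The log2 fold change was -0.24 (SE 0.10). PPME1, the methylesterase of protein phosphatase PP2A, measured 5.41, 4.99 and 4.84 FPKM in control against 4.10, 4.40 and 4.35 FPKM in siRNA libraries. Its log2 fold change was also -0.24 (SE 0.11), again with a gap between the groups. ZNF830, a zinc finger protein, measured 11.3, 11.4 and 12.2 against 8.93, 9.34 and 10.6 FPKM, with siRNA library 3 the closest to the controls (log2 fold change -0.26, SE 0.12). The other lower genes were ZER1, a substrate receptor of a ubiquitin ligase (-0.22), GLMN, an inhibitor of cullin-RING ligases (-0.21), VPS16 of endolysosomal tethering complexes (-0.20), ENG, a co-receptor for TGF-beta ligands (-0.20), ATG4B, the protease that processes LC3 (-0.19), CCNB2, a mitotic cyclin (-0.19), and TNKS1BP1, a tankyrase-binding protein (-0.16).

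Among the higher genes, ACTBL2, an actin-like gene, measured 5.81, 5.91 and 6.17 FPKM in control against 7.09, 7.22 and 7.29 FPKM in siRNA libraries. The values within each group were close together (log2 fold change 0.28, SE 0.10). TRIB1, a pseudokinase adaptor that recruits the ligase COP1 to its targets, measured 8.55, 8.31 and 8.21 against 10.9, 10.3 and 8.77 FPKM, with siRNA library 3 near the controls (0.26, SE 0.10). RRAGB, a Rag GTPase that places mTORC1 on the lysosome, overlapped on deposited FPKM, with siRNA library 3 at 5.45 and control library 2 at 5.69 FPKM (0.30, SE 0.13). H2AC8 and H2AC6, histone H2A genes, are described with their list. SEL1L3 (0.24), NDC1, a nucleoporin (0.23), CNOT6L, a deadenylase of the CCR4-NOT complex (0.22), CLCN3, an endosomal chloride transporter (0.20), and ZNF267, a zinc finger gene (0.20), complete the group.

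**Figure D3:**
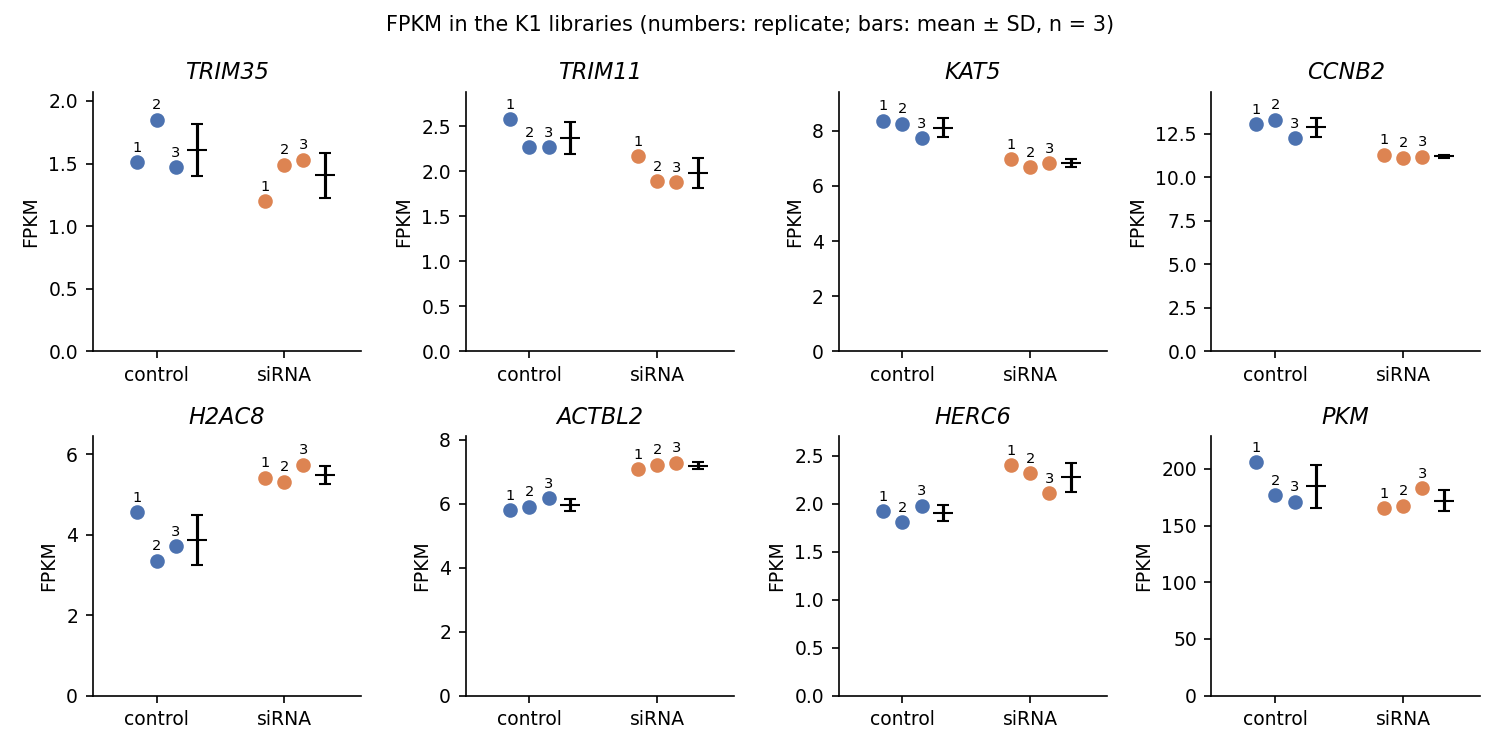
FPKM of 8 genes in each K1 library (numbered points; blue, control siRNA; orange, TRIM35 siRNA), with the mean and SD of 3 libraries as black bars. TRIM35 and PKM overlap between groups, whereas KAT5, CCNB2 and TRIM11 are lower and H2AC8, ACTBL2 and HERC6 higher in all 3 siRNA libraries, none of them at an adjusted p under 0.05 with group means.

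No glycolysis gene was called in K1, and the intervals bound each of them. Of the 23 tested genes 0 were without overlap in either direction, 8 had a log2 fold change above 0 and 15 below, with a median of -0.04 beside -0.00 over all tested genes. All 23 intervals lay inside a 2-fold change, the widest reaching 1.74-fold. PKM, the pyruvate kinase gene that TRIM35 is known to act on as protein, measured 206, 177 and 171 FPKM in control against 166, 168 and 183 FPKM in siRNA libraries. The control value of library 1 was the highest, and the groups overlapped (log2 fold change -0.09, SE 0.13). Gene-level values do not separate the M1 and M2 transcripts. LDHA, lactate dehydrogenase A, measured 169, 149 and 132 against 125, 126 and 168 FPKM (-0.09, SE 0.18), the order following the axis. HK2, the inducible hexokinase, measured 1.63, 1.59 and 1.66 against 1.77, 1.23 and 1.71 FPKM (-0.04, SE 0.17). SLC2A1, the glucose transporter GLUT1, measured 3.06, 2.85 and 2.64 against 2.96, 2.59 and 3.48 FPKM (0.09, SE 0.15). The extremes of the list were SLC16A3, a lactate exporter (-0.17), and SLC16A1, a lactate carrier (0.09).

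The neighbouring pathways gave small medians too. The pentose phosphate and hexosamine list had a median of -0.07 (12 tested), the tricarboxylic acid cycle list -0.03 (23 tested) and the nuclear oxidative phosphorylation list -0.06 (26 tested), with no member called or without overlap. With the component as covariate these medians were -0.01, 0.00 and -0.01, and without control library 1 and siRNA library 3 they were -0.09, -0.07 and -0.15. The 13 mitochondrially encoded genes had a median of -0.08, with 12 below 0, and -0.12 with the covariate. In the covariate fit 7 were lower at an unadjusted p under 0.05 by edgeR and 1 higher. Of all tested genes, 3.31% were lower and 2.92% higher there, and the p-values of that fit are too small. MT-ND5, a subunit of complex I, measured 595, 680 and 537 FPKM in control against 651, 515 and 444 FPKM in siRNA libraries (log2 fold change -0.17, SE 0.15). The groups overlapped, since siRNA library 1 was the second highest of the 6. Ribosomal protein genes were at -0.05 with group means, with 28 of 30 below 0. Without control library 1 and siRNA library 3 they were at -0.14, with 30 of 30 below 0. With the covariate they were at 0.01. That value is near 0 by construction, since the component follows the mean level of these genes (correlation -0.99).

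For proliferation, most mitotic genes had a log2 fold change just below 0. Of 35 tested members 0 were called, 32 had a log2 fold change below 0, and 5 were lower without overlap (BUB1B, CCNB2, CDC25B, KIF23 and PLK1, all but CCNB2 named after their values were seen), with 0 higher. That is 5 of 35 beside 2.36% of all tested genes. The list median was -0.11 with group means, -0.09 with the covariate and -0.16 without control library 1 and siRNA library 3. The list was on the negative side of the axis for 24 of 27 members, and its mean centred level was 0.12, 0.01 and -0.13 in control and -0.23, -0.19 and 0.04 in siRNA libraries, so the groups overlapped as a list. Ribosomal protein levels moved with these values, at 0.32, 0.02 and -0.34 in control and -0.43, -0.17 and 0.37 in siRNA libraries, and their part in the mitotic values was not tested.

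CCNB2, cyclin B2, measured 13, 13.3 and 12.2 FPKM in control against 11.3, 11.1 and 11.2 FPKM in siRNA libraries. The siRNA values were nearly identical and below every control (log2 fold change -0.19, SE 0.10). CDK1, its kinase partner, measured 14.5, 14 and 13.8 against 10.5, 12.6 and 13.5 FPKM (-0.20, SE 0.13), lower by FPKM but with siRNA library 3 overlapping after scaling. MKI67, the Ki-67 gene, measured 5.12, 5.94 and 6.49 against 7.19, 6.26 and 4.24 FPKM, with the highest and the lowest value both in siRNA libraries (0.01, SE 0.17). TOP2A, topoisomerase II alpha, measured 33.8, 34.5 and 37.0 against 35.3, 33.9 and 34.0 FPKM (-0.02, SE 0.08).

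DNA replication genes had members on both sides. Of 35 tested, POLA1, POLE2 and RFC3 were higher without overlap and CDC45 and MCM6 lower, none called, with a median of -0.08. That is 3 and 2 of 35 beside 2.54% and 2.36% of all tested genes. RFC3, a subunit of the clamp loader, measured 4.49, 4.72 and 4.31 FPKM in control against 5.76, 4.92 and 4.80 FPKM in siRNA libraries (log2 fold change 0.20, SE 0.12). MCM2, a helicase subunit, overlapped (-0.09, SE 0.13). Without control library 1 the list median was -0.01. In the list of 19 genes of G1 and S phase control, CCND1 and RBL1 were lower without overlap, 2 of 19 beside 2.36% of all tested genes, with a list median of -0.00. RBL1, the pocket protein p107, measured 2.93, 3.08 and 3.32 against 2.66, 2.71 and 2.53 FPKM (-0.23, SE 0.10). CCND1, cyclin D1, measured 96.3, 98.7 and 101 against 95.2, 98.7 and 84.5 FPKM, so on FPKM the groups overlapped (-0.08, SE 0.09). MYC measured 10.4, 8.42 and 8.23 against 10.8, 9.81 and 10.7 FPKM, overlapping through control library 1 (0.21, SE 0.13).

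Replication-dependent histone genes, whose transcripts normally lack a poly(A) tail, had values mostly above control, with none called. Of 18 histone genes listed with a value, 10 passed the filter, 9 of these had a log2 fold change above 0, and H2AC6 and H2AC8 were higher without overlap beside 2.54% of all tested genes. The list median was 0.26, and 0.23 with the covariate. The mean centred level of the list was -0.12, -0.05 and 0.17 in control and 0.29, 0.34 and 0.12 in siRNA libraries, so the groups overlapped as a list. H2AC8 measured 4.56, 3.36 and 3.71 FPKM in control against 5.42, 5.32 and 5.74 FPKM in siRNA libraries (0.51, SE 0.23). H2AC6 measured 5.73, 6.19 and 7.14 against 7.62, 7.67 and 7.48 FPKM (0.27, SE 0.12). Both had every siRNA value above every control. H2BC8 measured 3.21, 2.55 and 5.14 against 7.44, 7.66 and 3.75 FPKM, a larger difference that siRNA library 3 broke (0.81, SE 0.35). H2BC8 and H2AC8 lie next to each other on chromosome 6 on opposite strands (26216200 to 26216688 and 26216921 to 26217437, hg38), and histone genes are near-identical copies, so how reads were shared among them is uncertain. The summed level of the list was 48.2 to 70.6 FPKM over the libraries.

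For metastasis, epithelial and mesenchymal lists had medians near 0. The 22 mesenchymal genes had a median of 0.04 and the 14 epithelial genes of 0.03, with 0 called in either list. TGFBI was higher and PKP3 lower without overlap, 1 of 22 and 1 of 14 beside 2.54% and 2.36% of all tested genes. On FPKM the groups overlapped for TGFBI, with siRNA library 3 at 350 and control library 3 at 358 FPKM. CDH2, N-cadherin, measured 13.6, 13.7 and 13.4 FPKM in control against 13.9, 13.7 and 14 FPKM in siRNA libraries (log2 fold change 0.04, SE 0.08), a spread under 1 FPKM over all 6 libraries. VIM, vimentin, measured 1404, 1193 and 942 against 959, 959 and 1469 FPKM, which follows the axis in both groups (-0.05, SE 0.24). With the covariate its log2 fold change was 0.01 (SE 0.05). FN1, fibronectin, measured 2575, 2901 and 3461 against 3774, 3641 and 2488 FPKM, in the reverse order (0.15, SE 0.18). FN1 loaded on the opposite end of the axis from VIM.

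The 22 invasion proteases and inhibitors had 0 genes called and 0 without overlap, and a median of -0.03. MMP1, the interstitial collagenase, measured 865, 889 and 945 FPKM in control against 830, 902 and 940 FPKM in siRNA libraries (-0.00, SE 0.11). ADAM9, a membrane metalloproteinase, was at 0.17 (SE 0.10) and PLAUR, the urokinase receptor, at -0.16 (SE 0.13), both with overlap. Among 24 adhesion genes the median was 0.06, and ITGB8, the integrin beta-8 chain, measured 4.81, 5.51 and 6.62 against 7.55, 6.94 and 5.74 FPKM (0.26, SE 0.13). With the covariate ITGB8 was at 0.23 (SE 0.05, edgeR adjusted p = 0.314).

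**Figure D4:**
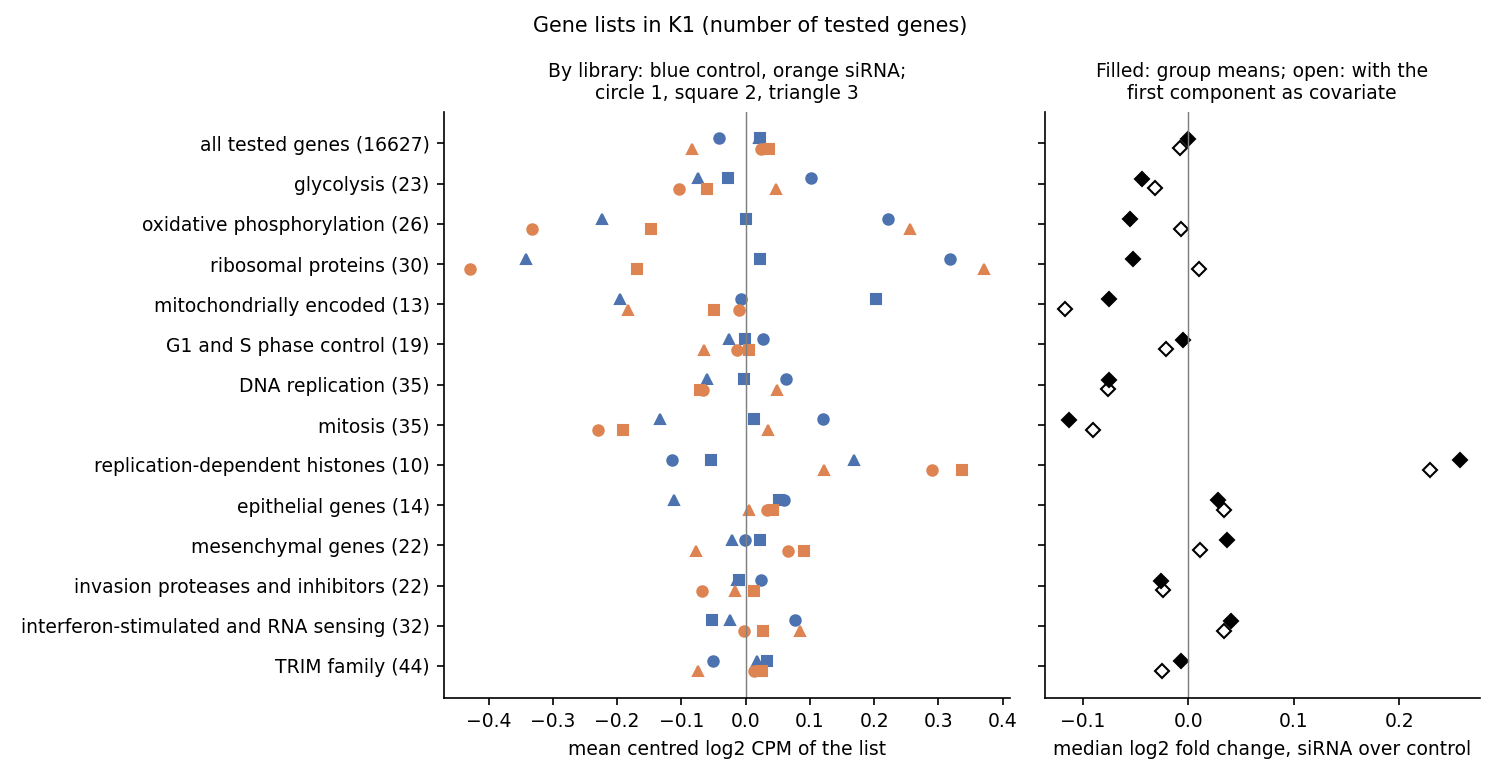
Left, mean centred log2 CPM of selected gene lists in each K1 library (blue, control; orange, siRNA; circle, square and triangle for replicates 1, 2 and 3); right, the median log2 fold change of the list from group means (filled) and with the first component as covariate (open). Of the lists shown, ribosomal protein and oxidative phosphorylation lists spread widest over libraries with both groups at both ends, and the histone median of 0.26 is the farthest from 0 of the medians shown.

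Interferon-stimulated and RNA-sensing genes, part of the antiviral response that IRF7 and TRAF3 serve, had a median of 0.04 over 32 tested members. None was called; 6 were higher without overlap (EIF2AK2, HERC6, IFI44, SAMD9 and TLR3 among them) and DHX58 lower, beside 2.54% and 2.36% of all tested genes. HERC6, an interferon-induced HECT-type ligase, measured 1.92, 1.81 and 1.98 FPKM in control against 2.40, 2.32 and 2.11 FPKM in siRNA libraries (log2 fold change 0.27, SE 0.11). SAMD9, an antiviral factor, measured 2.86, 2.71 and 3.03 against 3.42, 3.27 and 3.19 FPKM (0.21, SE 0.10). Both had a gap between groups. Among the other members, ISG15 was at -0.27 (SE 0.38), IFI6 at -0.26 (SE 0.40) and MX1 at 0.10 (SE 0.10). EIF2AK2, IFI44, TLR3 and DHX58 were named after their values were seen. In TPC-1, HERC6 was at -0.27 and SAMD9 at -0.16, and the differences between lines did not pass the test (adjusted p = 1.00 for both).

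Of the known partners of TRIM35, IRF7 measured 1.82, 1.12 and 1.08 FPKM in control against 1.14, 1.29 and 1.49 FPKM in siRNA libraries (log2 fold change -0.04, SE 0.27). TRAF3 measured 4.0, 4.07 and 4.48 against 4.70, 4.61 and 3.34 FPKM (0.02, SE 0.12). Both overlapped between groups. In the list of 10 tested partners and Toll-like receptor route genes, 0 were without overlap, and IRAK4 and IRAK1, kinases of that route, were at 0.17 (SE 0.11) and -0.14 (SE 0.13). TLR7 and TLR9, receptors upstream of IRF7, were at 0 FPKM in all 6 libraries.

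Of 44 tested TRIM genes, 21 were above 0 and 23 below, with a median of -0.01. TRIM11 and TRIM26 were lower without overlap, 2 of 44 beside 2.36% of all tested genes. TRIM11, a ligase of the same family, measured 2.58, 2.27 and 2.27 FPKM in control against 2.17, 1.89 and 1.88 FPKM in siRNA libraries (-0.26, SE 0.12). TRIM26 measured 4.23, 3.63 and 3.49 against 3.24, 3.30 and 3.12 FPKM (-0.23, SE 0.13). Without control library 1 and siRNA library 3 they were at -0.17 (SE 0.12) and -0.13 (SE 0.13). The siRNA sequence is not given in the sources used here, so matches to these genes were not examined. The 16 genes of the RNA interference machinery had a median of 0.02 and 0 without overlap.

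Over all 35 lists, 2 genes were at an unadjusted p under 0.05 by edgeR with group means, HERC6 and the histone gene H2BC8, both higher. Stress and signalling lists held at most 2 genes without overlap each, beside 2.54% of all tested genes higher and 2.36% lower. HSPA8, the constitutive cytosolic chaperone, was the 1 of 15 heat shock genes, at 184, 172 and 194 FPKM in control against 214, 200 and 193 FPKM in siRNA libraries (log2 fold change 0.15, SE 0.09). The FPKM groups overlap through siRNA library 3. Among 20 p53 targets, AEN, an apoptosis-linked nuclease (-0.14, SE 0.09), and PLK3, a stress kinase (-0.23, SE 0.13), were lower without overlap, 2 of 20, with a list median of 0.02. ETV1, a transcription factor downstream of MAPK signalling, was higher without overlap among 20 MAPK output genes (0.13, SE 0.09), where CCND1, described above, was the 1 lower gene. The lists of hypoxia, cholesterol synthesis, autophagy, endoplasmic reticulum chaperones, NF-kB, NRF2, TGF-beta with YAP, and BCL2 family genes had 0 members called and 0 without overlap. NUPR1 was higher in the ATF4 list, GLIS3 in the thyroid list and PDGFRB among fibroblast markers, all 3 without overlap and none called. On FPKM, siRNA library 3 was below control library 3 for ETV1 (5.23 and 5.58) and GLIS3 (8.33 and 8.79). For PDGFRB, at most 0.47 FPKM, both of these libraries were at 0.44 FPKM.

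Whether the siRNA effect in K1 differed from that in TPC-1 was tested with an interaction term over 17447 genes and all 12 libraries. It called 0 genes (0% called), also without the TPC-1 control library whose title names a different line, with 301 at an unadjusted p under 0.05, and its smallest adjusted p was 0.0700 by edgeR, shared by SLIT1 and SULF1, a heparan sulfate endosulfatase. DESeq2 called both. Of the genes higher without overlap in K1, 323 were tested in both lines and 12 of these (3.72%) were also higher without overlap in TPC-1, where 2.61% of all genes tested in both were. The reverse direction in TPC-1 held 6 of the 323, beside 2.07% of all genes tested in both that were lower there. Of 304 lower genes 7 (2.30%) were lower in TPC-1 as well, beside 2.07% of all. More of the 304, 14, were higher there, beside 2.61% of all.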

How the data were processed

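The authors deposited 1 table of 61806 genes that gives, for each library, whole-number read counts and FPKM, with hg38 coordinates. Cutadapt 1.9.1 and the hg38 build are named in the submitters' processing notes; which aligner, counter, annotation release and strand setting were used is not given in the sources used here. If counting ignored strand, a gene and its antisense neighbour share reads. The deposited FPKM values were used to show levels, and the deposited counts for all tests. The labels' protocols name TRIzol extraction of total RNA and random-primed cDNA, and the labels put all libraries in 1 batch, which left nothing to compare between batches.

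The 6 K1 libraries were fitted with edgeR 4.0.16 (R 4.3.3): filterByExpr kept 16627 genes, the 45179 removed genes held 0.132% to 0.214% of counts, libraries were scaled by TMM, and glmQLFTest compared group means with 4 residual degrees of freedom. Called genes had an adjusted p under 0.05 (Benjamini-Hochberg, over all tested genes). Standard errors are the log2 fold change over the square root of F, and intervals are at 95%. Groups without overlap have all 3 siRNA values on one side of all 3 controls on log2 CPM (prior count 2). The first component was computed from centred log2 CPM of genes with a mean of at least 5 FPKM. Exonic size is that of the deposited table, and biotypes are from GENCODE 29. Alternatives used DESeq2 1.42.0 and limma 3.58.1, log2(FPKM + 0.1) and log2(FPKM + 1), and voom with library weights. Counting intervals cover counting error only, since reads carried no molecular identifiers. The scripts were tested on simulated data.

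The comparison, the 35 gene lists and the named genes were chosen with earlier results of these data known. Named genes were TRIM35, 16 fixed genes, 2 members per list by unadjusted p with a mean of at least 1 FPKM, and, among protein-coding genes without overlap and with at least 5 FPKM in the higher group, the 10 per direction with the smallest p and the 5 with the largest change; further names are marked in the text, and some genes that these rules take are not reported here. The interaction fit used all 12 libraries and 17447 genes.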

Additional observations from a re-analysis of the deposited data

How the results depend on the processing

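The count of 0 called genes in K1 was also found by DESeq2, with DESeq2 size factors in edgeR, with a filter of at least 1 CPM in 3 libraries, in a fit of all 12 libraries, by limma on FPKM with either pseudocount, by voom with library weights, without each library in turn, and without control library 1 and siRNA library 3 together, a fit chosen after seeing the data. It was 2 with no filter on low counts (CASP14 and SLIT1), 2 with the first component as covariate and 2 with the ribosomal protein level as covariate, the last chosen after seeing the data (SLIT1 in both). These 2 covariates nearly coincide (correlation -0.99). Genes at an unadjusted p under 0.05 numbered 114 in the fit reported and 987 without siRNA library 3, 783 without that library and control library 1, 64 to 186 without any of the others, 482 with no filter and 3914 with voom weights. With the first component as covariate, the count of 2 became 6 with no filter and 1 by DESeq2, and 1 to 20 without each library in turn, 20 without control library 3. Library numbers did not pair the groups: deviations of same-numbered libraries correlated at -0.83, 0.12 and -0.84, and control library 1 correlated best with siRNA library 3 (0.86). With the replicate block 0 genes were called and 21 were at an unadjusted p under 0.05; in the interaction test the replicate block also gave 0. The interaction count of 0 became 2 by DESeq2 and 4 with no filter (DCC, DCN, SLIT1 and SULF1), and was 0 to 1 without each library in turn, where SLIT1 was called without TPC-1 siRNA library 3 and SULF1 without K1 control library 3. List medians without each library in turn ranged from -0.059 to 0.010 for G1 and S phase control, -0.099 to -0.0063 for DNA replication, -0.070 to 0.073 for epithelial genes, which were at -0.072 with voom weights, and -0.051 to 0.010 for invasion proteases. Of the named genes 20 changed the sign of a log2 fold change in some fit, none of them called there, and the cause was not tested. Without each library in turn the ranges were -0.19 to 0.012 for PKM, -0.32 to 0.019 for RPS2, -0.58 to 0.062 for ISG15, -0.41 to 0.025 for RPL18, -1.35 to 0.50 for RN7SL1, -0.077 to 0.20 for SLC2A1, -1.04 to 0.050 for SNORD3A, -0.30 to 0.025 for LDHA, -0.015 to 0.059 for CDH2, -0.25 to 0.061 for THY1, -0.11 to 0.13 for TIE1, -0.16 to 0.12 for HK2, -0.052 to 0.0018 for TOP2A, -0.34 to 0.12 for VIM, -0.19 to 0.28 for IRF7, -0.046 to 0.12 for TRAF3, -0.13 to 0.17 for MKI67 and -0.087 to 0.066 for MMP1. Voom weights gave 0.022 for ENO2, 0.037 for MCM2, -0.080 for SLC2A1, -0.0059 for CDH2 and 0.098 for IRF7. The first component and the ribosomal protein level as covariates gave 0.0095 and 0.010 for VIM, 0.043 and 0.044 for IRF7, -0.020 and -0.018 for TRAF3, -0.056 and -0.054 for MKI67, and 0.0058 and 0.0053 for MMP1. The replicate block gave 0.00080 for IRF7 and -0.0056 for MKI67, limma on log2(FPKM + 0.1) and log2(FPKM + 1) gave -0.0033 and -0.00048 for TRAF3 and -0.015 and -0.010 for MKI67, and DESeq2 size factors and DESeq2 both gave 0.00053 for MMP1. Of the genes under 1 FPKM, 46.3% had an interval inside 2-fold with group means. With the first component as covariate, where intervals are too narrow, 63.5% had one. The median log2 fold change of all genes stayed between -0.016 and 0.0027 in every fit of all 6 K1 libraries.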
